A study of Mus musculus with 17 samples.

Results

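The panel held 17 genes whose symbols begin with Tnf, the tumor necrosis factor (TNF) ligands and receptors, of 988 genes measured in 17 mouse colon libraries. All of them were taken as members by symbol alone. They comprised 7 ligands (Tnf, Tnfsf4, Tnfsf9, Tnfsf11, Tnfsf14, Tnfsf15 and Tnfsf18) and 10 receptors (Tnfrsf1b, Tnfrsf4, Tnfrsf8, Tnfrsf9, Tnfrsf10b, Tnfrsf11a, Tnfrsf14, Tnfrsf17, Tnfrsf18 and Tnfrsf25). None was a TNF-induced gene of the Tnfaip type, and Tnfrsf1a, the other TNF receptor, was not among the rows. The members were read in 6 tumors from Kit-B6 mice, 6 tumors from Kit-W/sh mice, 3 preneoplastic colon samples from Kit-B6 mice and 2 from Kit-W/sh mice. Kit-B6 is labelled C57BL/6 and Kit-W/sh is labelled W-SASH. Kit-W/sh mice carry the W-sash inversion near Kit, which disturbs Kit transcription and leaves adult mice short of mast cells, and other cells that use Kit can be affected as well. Every mouse, in all 4 groups, had received azoxymethane (AOM), an intraperitoneal carcinogen that produces colon tumors in rodents. Mice with tumors had received 6 injections within 6 weeks, were killed 18 weeks afterwards and were 32 weeks old. Mice with preneoplastic colon had received 3 injections within 3 weeks, were killed 3 weeks afterwards and were 14 weeks old. Age, dose, tissue and interval therefore changed together between the stages and cannot be told apart, and no untreated mice were analysed here.

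TNF superfamily ligands are mostly trimeric membrane proteins, some of which are shed, and each binds one or a few receptors of the matching receptor family. The receptors recruit TRAF adaptor proteins that activate NF-kB, and a subset carry a death domain through which they can start apoptosis. In the intestine the family is known for inflammation (TNF and its receptors), for co-stimulation of T cells (the products of Tnfsf4, Tnfsf9, Tnfsf14, Tnfsf15 and Tnfsf18) and, through RANK ligand (Tnfsf11) and RANK (Tnfrsf11a), for differentiation of the epithelium that overlies lymphoid tissue.

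Library totals were 616009 to 1399902 counts, and the members together took 1953 to 4745 counts, or 0.239% to 0.418% of a library. Preneoplastic libraries held 616009 to 815973 counts, Kit-B6 tumors 616554 to 1399902 and Kit-W/sh tumors 1049408 to 1262171. Levels are given as CPM, which are counts relative to the scaled size of the library, and since each gene was read from its own amplicon, levels were compared between libraries and never between genes. In tumors Kit ran from 93.7 to 473 CPM for Kit-B6 and from 48.9 to 258 CPM for Kit-W/sh. Preneoplastic colon held 268 to 521 CPM of Kit in Kit-B6 samples and 113 and 127 CPM in the Kit-W/sh pair. The inversion spares the transcribed part of Kit, so this amplicon does not test the genotype. The library labelled Kit-W/sh tumor 2 had the highest Kit of its group and 460 CPM of Cpa3, a mast cell protease, against at most 256 CPM in Kit-B6 tumors, so it went against its label. Kit-B6 tumor 4 stood apart from the other tumors of its group, with the lowest level for 8 members and the highest for 4. It also had the highest sum of the 2 epithelial markers measured in any tumor (49441 CPM) and the lowest sums of the neutrophil (61.8 CPM) and monocyte and macrophage (1509 CPM) markers. Because the samples were bulk tissue, fewer cells of a type and less RNA per cell cannot be told apart.

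Upstream sequence is shown for 4 members on which the results turn: Tnfsf18 and Tnfrsf9, the members with the largest difference between tumors and preneoplastic colon in Kit-B6 and in Kit-W/sh respectively, Tnfrsf11a, lower in tumors of both genotypes, and Tnf itself. Each window holds the 250 bases before a start site in RefSeq on mouse build GRCm38.p6, 5′ to 3′ on the strand of the gene, with motif matches in capitals. Tnfrsf9 is shown at its second listed start, chr4:150927749-150927998 on the plus strand, Tnfsf18 at chr1:161494407-161494656 on the plus strand, Tnf at chr17:35202008-35202257 on the minus strand and Tnfrsf11a at chr1:105780473-105780722 on the plus strand.
Tnfrsf9: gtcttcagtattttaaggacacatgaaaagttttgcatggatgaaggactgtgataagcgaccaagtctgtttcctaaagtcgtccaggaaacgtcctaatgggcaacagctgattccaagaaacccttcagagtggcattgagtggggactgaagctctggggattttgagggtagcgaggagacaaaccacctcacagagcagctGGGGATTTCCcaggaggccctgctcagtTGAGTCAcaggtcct
Tnfsf18: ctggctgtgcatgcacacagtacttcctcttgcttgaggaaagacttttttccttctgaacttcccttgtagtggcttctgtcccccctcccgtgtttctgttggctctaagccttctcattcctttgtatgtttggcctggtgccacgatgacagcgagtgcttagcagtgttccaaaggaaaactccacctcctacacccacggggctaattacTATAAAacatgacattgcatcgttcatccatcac
Tnf: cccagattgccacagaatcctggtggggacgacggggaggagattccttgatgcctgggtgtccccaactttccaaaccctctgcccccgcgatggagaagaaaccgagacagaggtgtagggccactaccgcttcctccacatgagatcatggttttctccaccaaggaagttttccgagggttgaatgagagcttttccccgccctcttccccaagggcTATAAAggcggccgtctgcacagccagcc
Tnfrsf11a: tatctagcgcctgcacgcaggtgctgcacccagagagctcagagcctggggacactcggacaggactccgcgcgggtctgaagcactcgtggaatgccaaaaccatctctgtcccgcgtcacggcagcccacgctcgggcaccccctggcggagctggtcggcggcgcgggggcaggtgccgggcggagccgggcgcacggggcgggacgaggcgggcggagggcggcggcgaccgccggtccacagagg
In all, 3 patterns were searched on both strands of 16 windows matched to 14 of the 17 members: a word that resembles the NF-kB site (GGGGATTTCC, as in the Tnfrsf9 window, with any base at its positions 4 and 5), TGANTCA, which resembles the AP-1 site, and the TATA box word TATAAA. No match of one pattern overlapped a match of another in these windows. The NF-kB-like word was found in windows of 2 members, Tnfrsf9 and Tnfrsf25, and in 1.41% of 32851 mouse windows of the same length. TGANTCA was found in windows of 3 members, Tnfrsf8, Tnfrsf9 and Tnfsf14, and in 6.75% of all windows. TATAAA was found in windows of 4 members, Tnf, Tnfsf11, Tnfsf18 and Tnfrsf17, and in 12.4% of all windows. At the second Tnfrsf9 start the first bases of the NF-kB-like and AP-1-like matches lay 43 and 15 bases before the start, whereas the first listed start of Tnfrsf9 and the Tnfrsf11a window held no match. These matches describe letters in a window and are not evidence of binding.

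The first question was how the family differed between established tumors and early, preneoplastic colon. In Kit-B6 mice 6 members rose in tumors (Tnfsf4, Tnfsf9, Tnfsf14, Tnfsf18, Tnfrsf9 and Tnfrsf10b) and 3 fell (Tnfrsf11a, Tnfrsf17 and Tnfrsf25), of 17 tested. In Kit-W/sh mice 4 members rose (Tnfsf9, Tnfsf18, Tnfrsf1b and Tnfrsf9) and 2 fell (Tnfrsf11a and Tnfrsf14), of 17 tested. Across the panel 41.1% of 869 genes were called in Kit-B6 (22.2% higher and 18.9% lower) and 39.7% in Kit-W/sh (20.9% higher and 18.8% lower), and the members' counts are read against those shares. A call here is an adjusted p under 0.05 in edgeR's quasi-likelihood test, with Benjamini-Hochberg adjustment over all genes tested. The median log2 fold change of the members was 0.09 in Kit-B6 and 0.56 in Kit-W/sh, against -0.00 and 0.08 for all genes. The count in Kit-B6 depended on the scaling. With unscaled library totals 7 members were called, 6 higher and 1 lower, since Tnfrsf17 and Tnfrsf25 no longer passed. Unscaled totals moved the Kit-B6 median of all genes to 0.24, and the share of all genes called with them is not given here. Tnfrsf17 and Tnfrsf25 were also lost with scaling to the 9 genes listed last in the tables.

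**Figure D1:**
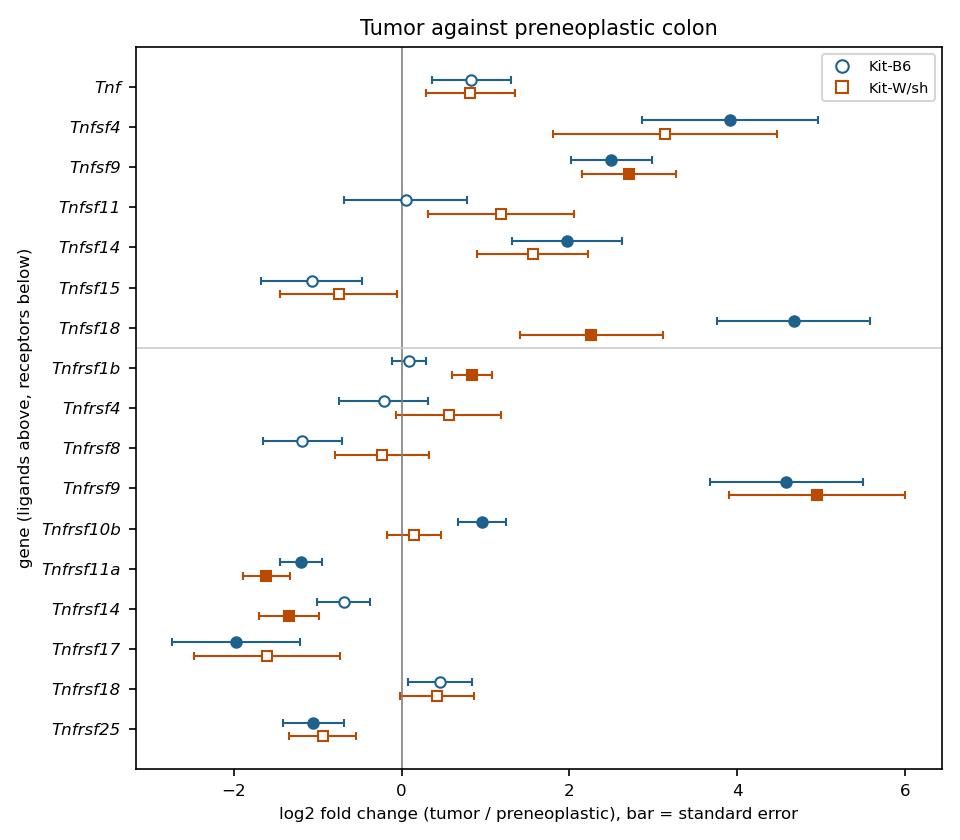
Log2 fold change of tumors over preneoplastic colon for each Tnf-named gene (rows, ligands above the line and receptors below), with the standard error as the bar; circles are Kit-B6 and squares Kit-W/sh, and filled symbols passed the test. Tnfrsf9 at 4.58 and 4.95 and Tnfsf9 at 2.50 and 2.71 lie to the right in both genotypes, and Tnfrsf11a at -1.20 and -1.61 lies to the left.

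Among the ligands, Tnfsf9, which encodes CD137 ligand, a co-stimulator of T cells, was higher in every tumor than in every preneoplastic sample. Its level was 22, 20 and 18.6 CPM in the Kit-B6 preneoplastic samples and 36.2 and 39.9 CPM in the Kit-W/sh preneoplastic samples. In tumors it ran from 76.8 to 160 CPM in Kit-B6 (median 115) and from 115 to 512 CPM in Kit-W/sh (median 181). The log2 fold change was 2.50 ± 0.48 in Kit-B6 (edgeR adjusted p = 0.000826) and 2.71 ± 0.56 in Kit-W/sh (edgeR adjusted p = 0.00174). Tnfsf9 remained called in both genotypes under every scaling, tool, filter and left-out library tried.

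Tnfsf18 encodes the ligand of GITR, a receptor prominent on regulatory and activated T cells. It was nearly unread in Kit-B6 preneoplastic colon, with 3.67, 0 and 0 CPM from 2 counts in all, and stood at 7.24 and 4.13 CPM in the Kit-W/sh preneoplastic samples. Tumors held 6.18 to 56.6 CPM (median 34) in Kit-B6 and 18.5 to 40.1 CPM (median 26) in Kit-W/sh. Tumors and preneoplastic samples did not overlap within either genotype. The ratio of pooled counts, scaled by library size, was 29.6 in Kit-B6 (95% counting interval 8.08 to 246), and the fitted log2 fold change of 4.67 ± 0.91 (edgeR adjusted p = 0.000943) rests on those 2 counts. Both lay in preneoplastic sample 1, and without it the fitted value was 8.06. In Kit-W/sh the log2 fold change was 2.26 ± 0.85 (edgeR adjusted p = 0.043), and this call was lost without either of the Kit-W/sh preneoplastic samples and without Kit-W/sh tumor 1, 2, 3, 5 or 6 (1.90 to 2.69 over all left-out libraries, edgeR adjusted p up to 0.242).

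Tnfsf4 encodes OX40 ligand, another T cell co-stimulator, and lies next to Tnfsf18 in the genome. The Kit-B6 preneoplastic samples held 1.83, 1.81 and 0 CPM, or 2 counts in all, and the Kit-W/sh pair held 1.81 and 0 CPM, or 1 count in all. Kit-B6 tumors held 2.06 to 35.5 CPM (median 17.2) and Kit-W/sh tumors 3.09 to 14.7 CPM (median 8.2). The lowest tumor, Kit-B6 tumor 4, was barely above the preneoplastic samples, with 2 counts. The ratio of pooled counts was 17.6 in Kit-B6 (95% counting interval 4.78 to 147) and 10.4 in Kit-W/sh (1.79 to 416). The fit called the gene in Kit-B6 (3.91 ± 1.05, edgeR adjusted p = 0.00805) and not in Kit-W/sh (3.14 ± 1.33, edgeR adjusted p = 0.0711).

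Tnfsf14 encodes LIGHT, a ligand of the receptors HVEM (Tnfrsf14) and lymphotoxin beta receptor. It stood at 1.83, 5.44 and 0 CPM in Kit-B6 preneoplastic colon and at 5.43 and 6.88 CPM in Kit-W/sh preneoplastic colon. Tumors held 6.18 to 15.3 CPM in Kit-B6 (median 8.21) and 13.1 to 24 CPM in Kit-W/sh (median 18.3), without overlap within either genotype. The log2 fold change was 1.97 ± 0.66 in Kit-B6 (edgeR adjusted p = 0.0257) and 1.56 ± 0.66 in Kit-W/sh (edgeR adjusted p = 0.07). In Kit-W/sh Tnfsf14 was called by DESeq2 (1.58, adjusted p = 0.0471) and with unscaled library totals. It was also called there with scaling to the 9 genes listed last in the tables and in a fit of that genotype alone. In a fit of the Kit-B6 libraries alone Tnfsf14 was not called. The Kit-B6 call was lost without preneoplastic sample 1 (1.86, edgeR adjusted p = 0.0797) or 3 (1.36, edgeR adjusted p = 0.101), and the value was 3.31 without sample 2, which held 3 of the 4 counts of its group.

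The other 3 ligands did not pass the test in either genotype. Tnf, the founding inflammatory cytokine of the family, stood at 99, 116 and 65.1 CPM in Kit-B6 and at 148 and 201 CPM in Kit-W/sh preneoplastic colon. In tumors Tnf ran from 57.6 to 276 CPM in Kit-B6 (median 146) and from 162 to 498 CPM in Kit-W/sh (median 241), so that tumors and preneoplastic samples overlapped in both genotypes. The log2 fold changes of Tnf were 0.83 ± 0.47 in Kit-B6 (edgeR adjusted p = 0.159) and 0.82 ± 0.53 in Kit-W/sh (edgeR adjusted p = 0.227). Tnfsf11, which encodes RANK ligand, stood at 5.5, 39.9 and 17.1 CPM in Kit-B6 and at 30.7 and 17.9 CPM in Kit-W/sh preneoplastic colon. Its tumors held 3.09 to 47.5 CPM (median 21.5) in Kit-B6 and 17.4 to 127 CPM (median 46.3) in Kit-W/sh, again with overlap. Tnfsf15, which encodes TL1A, a ligand associated with gut inflammation, ranged from 2.85 to 27.2 CPM over all 17 libraries, with log2 fold changes of -1.07 ± 0.60 and -0.75 ± 0.70.

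**Figure D2:**
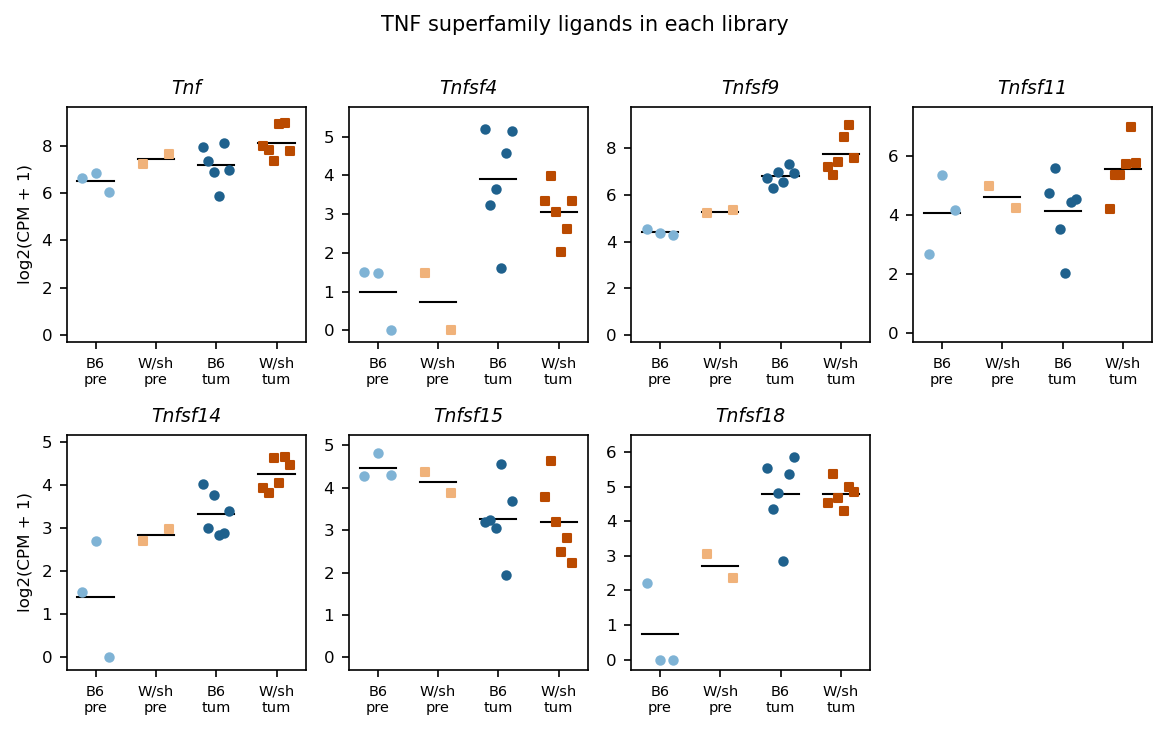
Levels of the 7 ligands as log2(CPM + 1) in each library, by group (pre, preneoplastic; tum, tumor); points are libraries and bars are group means of the plotted values. Tnfsf9, Tnfsf14, Tnfsf18 and Tnfsf4 lie higher in tumors than in preneoplastic samples of the same genotype without overlap, whereas Tnf, Tnfsf11 and Tnfsf15 overlap.

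Among the receptors, Tnfrsf9, which encodes CD137, the receptor of the Tnfsf9 product, went from a few counts to a plainly measured level. Preneoplastic samples held 0, 10.9 and 1.55 CPM in Kit-B6, from 7 counts in all, and 5.43 and 8.26 CPM in Kit-W/sh, from 9 counts. Tumors held 19.6 to 182 CPM in Kit-B6 (median 78.8) and 112 to 419 CPM in Kit-W/sh (median 180). Every tumor was above every preneoplastic sample, and the lowest tumor was Kit-B6 tumor 4. The ratio of pooled counts was 26.1 in Kit-B6 (95% counting interval 12.6 to 65.3) and 30.5 in Kit-W/sh (16 to 66.7). The log2 fold changes of 4.58 ± 0.91 (edgeR adjusted p = 0.00116) and 4.95 ± 1.05 (edgeR adjusted p = 0.0021) remained called under every alternative tried. The Kit-B6 value was 6.72 without preneoplastic sample 2, which held 6 of the 7 counts.

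Tnfrsf10b encodes the mouse death receptor for TRAIL. The Kit-B6 preneoplastic samples held 136, 140 and 186 CPM, below all 6 Kit-B6 tumors (246 to 388 CPM, median 283). In Kit-W/sh the preneoplastic samples were already at 376 and 263 CPM, inside the range of the tumors (206 to 492 CPM, median 358). The gene rose in Kit-B6 tumors (0.96 ± 0.29, edgeR adjusted p = 0.0152), while the Kit-W/sh value was 0.15 ± 0.32 (edgeR adjusted p = 0.718). The Kit-B6 call was lost without Kit-B6 preneoplastic sample 1 (0.91, edgeR adjusted p = 0.0542) or 2 (0.90, edgeR adjusted p = 0.0566).

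Tnfrsf1b encodes TNFR2, the TNF receptor of immune and endothelial cells that lacks a death domain. It stood at 427, 586 and 550 CPM in Kit-B6 preneoplastic colon and 411 and 606 CPM in Kit-W/sh preneoplastic colon. Kit-B6 tumors held 433 to 662 CPM (median 568), overlapping their preneoplastic samples, with 3 tumors above all of them, and Kit-W/sh tumors held 639 to 1103 CPM (median 979), all above theirs. Tnfrsf1b rose in Kit-W/sh tumors (0.84 ± 0.24, edgeR adjusted p = 0.013), and the Kit-B6 value was 0.09 ± 0.20 (edgeR adjusted p = 0.731). Without Kit-W/sh preneoplastic sample 1, the lower of the pair, the Kit-W/sh value was 0.60 and no longer passed (edgeR adjusted p = 0.202).

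Tnfrsf11a, which encodes RANK, was the member that fell in both genotypes. The preneoplastic samples of Kit-B6 held 2133, 1874 and 2026 CPM, and those of Kit-W/sh held 2429 and 2190 CPM. Tumors held 602 to 1534 CPM in Kit-B6 (median 720) and 562 to 953 CPM in Kit-W/sh (median 708). No tumor reached the lowest preneoplastic sample, and the nearest was Kit-B6 tumor 4. The log2 fold change was -1.20 ± 0.25 in Kit-B6 (edgeR adjusted p = 0.00168) and -1.61 ± 0.28 in Kit-W/sh (edgeR adjusted p = 0.000574), and both calls held under every alternative tried. The sum of the 2 epithelial markers measured, Epcam and Car4 of 8 listed, was also lower in tumors: 25387 to 49441 CPM in Kit-B6 and 24481 to 30382 CPM in Kit-W/sh, against 50711 to 122997 and 88899 to 89668 CPM in preneoplastic colon. In each genotype 1 of these 2 markers was called lower, and in Kit-B6 the other had a log2 fold change above 0. The part of the marker difference in the Tnfrsf11a result was not tested.

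Tnfrsf14, the HVEM gene, stood at 440, 265 and 321 CPM in preneoplastic colon of Kit-B6 and at 494 and 529 CPM in that of Kit-W/sh. Tumors held 133 to 399 CPM (median 191) in Kit-B6 and 146 to 303 CPM (median 169) in Kit-W/sh. The Kit-W/sh groups did not overlap, while in Kit-B6 the single tumor inside the preneoplastic range was tumor 4. The gene fell in Kit-W/sh (-1.34 ± 0.36, edgeR adjusted p = 0.00827) but not past the threshold in Kit-B6 (-0.69 ± 0.32, edgeR adjusted p = 0.0925), and it was called in Kit-B6 once tumor 4 was left out. The Kit-W/sh call was lost without either preneoplastic sample (-1.38 and -1.28, edgeR adjusted p = 0.0604 and 0.0672).

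Tnfrsf25 encodes DR3, the death domain receptor for TL1A found mainly on lymphocytes. It stood at 42.2, 30.8 and 37.2 CPM in preneoplastic colon of Kit-B6 and at 47 and 41.3 CPM in that of Kit-W/sh, and tumors held 11.4 to 22.3 CPM (median 18.6) and 12 to 31 CPM (median 26.3). Neither genotype showed an overlap, and the gene fell in Kit-B6 (-1.05 ± 0.36, edgeR adjusted p = 0.0274) but not past the threshold in Kit-W/sh (-0.94 ± 0.40, edgeR adjusted p = 0.0726). The Kit-B6 call of Tnfrsf25 was lost without tumor 5 (-0.94, edgeR adjusted p = 0.054) and without preneoplastic sample 1 (-0.91, edgeR adjusted p = 0.105) or 3 (-1.04, edgeR adjusted p = 0.0726). Tnfrsf17 encodes BCMA, a receptor of plasma cells and late B cells. Preneoplastic samples of Kit-B6 held 20.2, 41.7 and 58.9 CPM and those of Kit-W/sh 27.1 and 27.5 CPM, against 1.18 to 40.5 CPM (median 5.58) and 2.57 to 17 CPM (median 8.75) in tumors. A single tumor, Kit-B6 tumor 2, reached the preneoplastic range. The Kit-B6 call of Tnfrsf17 was marginal (-1.97 ± 0.76, edgeR adjusted p = 0.048) and was lost under all 5 other scalings, filters and fits tried with edgeR and in 8 of 9 fits that left out a library (edgeR adjusted p up to 0.175), while without Kit-B6 tumor 2 it was -3.07 and called. The summed level of 7 B cell markers, of 8 listed, moved with it: 31.9 to 693 CPM in Kit-B6 tumors and 15.9 to 116 CPM in Kit-W/sh tumors, against 143 to 2758 and 142 to 295 CPM in preneoplastic colon, and its part in the result was not tested.

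The remaining receptors did not pass the test in either genotype. Tnfrsf4, which encodes OX40, stood at 105, 120 and 58.9 CPM in preneoplastic colon of Kit-B6 and at 68.7 and 63.3 CPM in that of Kit-W/sh, against 32.9 to 160 CPM (median 75.4) and 39.4 to 197 CPM (median 92.5) in tumors. Tnfrsf18, which encodes GITR, ranged from 39.1 to 176 CPM over all libraries, with log2 fold changes of 0.46 ± 0.38 and 0.42 ± 0.44. The GITR ligand gene passed the test in both genotypes, with the limits given above, and its receptor gene passed in neither. The difference between the ligand and receptor values was not tested. Tnfrsf8, which encodes CD30 of activated lymphocytes, ranged from 20.2 to 210 CPM. Its value in Kit-B6 was -1.18 ± 0.47 (edgeR adjusted p = 0.0541), and it was called there by DESeq2, which called 42.6% of the genes to which it gave an adjusted p.

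**Figure D3:**
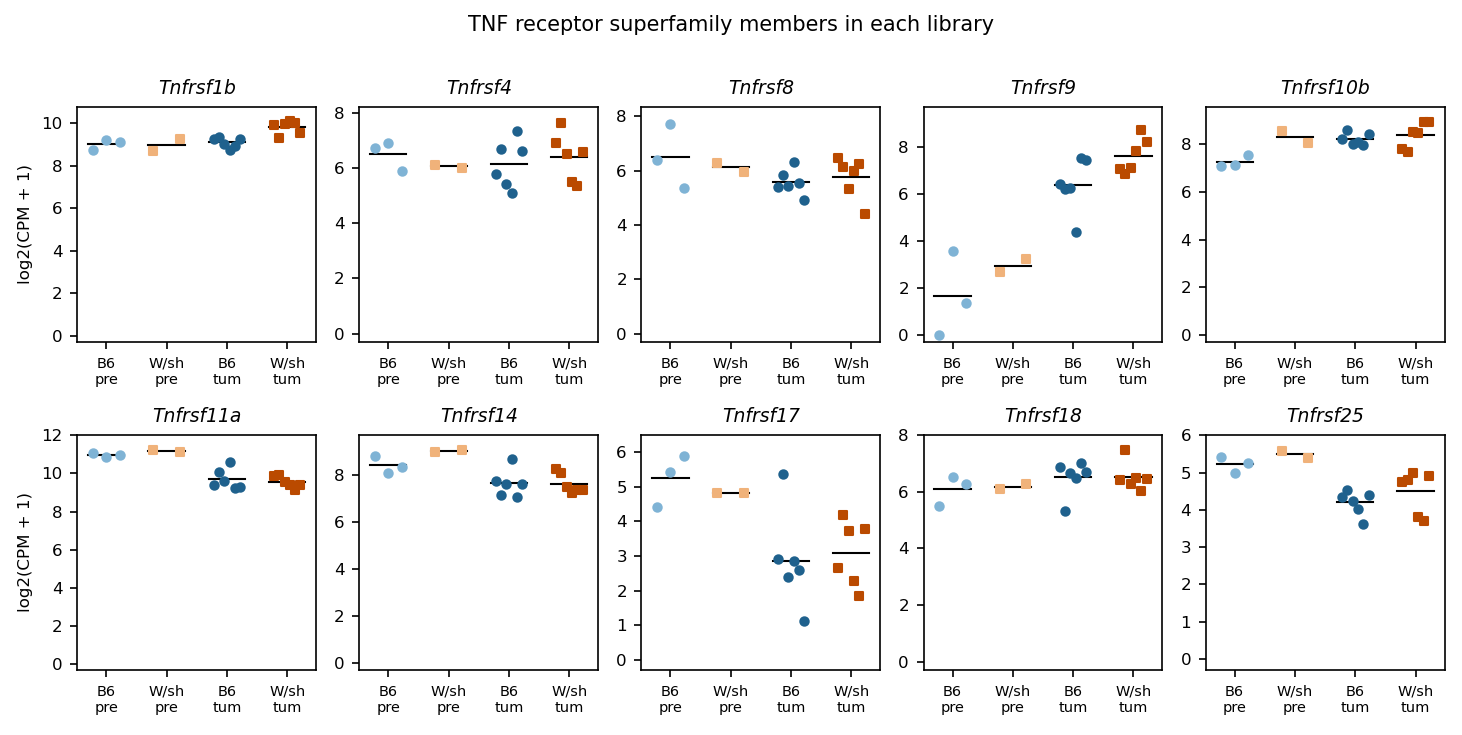
Levels of the 10 receptors as log2(CPM + 1) in each library, by group (pre, preneoplastic; tum, tumor); points are libraries and bars are group means of the plotted values. Tnfrsf9 separates tumors from preneoplastic samples upward, and Tnfrsf11a and Tnfrsf25 separate them downward, in both genotypes.

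Of the 17 members, 8 did not overlap between tumors and preneoplastic colon in Kit-B6 and 10 did not in Kit-W/sh, against 29.3% and 58.2% of all genes tested. Left-out libraries moved the counts of calls. The share of all genes called in those fits is not given here, so these counts are not read as particular to the members. Without Kit-B6 preneoplastic sample 1 there were 5 calls in Kit-B6 in place of 9 (Tnfrsf10b, Tnfrsf17, Tnfrsf25 and Tnfsf14 no longer passed), and without Kit-B6 tumor 4 there were 11. Without Kit-W/sh preneoplastic sample 1 there were 3 calls in Kit-W/sh in place of 6, without sample 2 there were 4, and without the library labelled Kit-W/sh tumor 2 there were 5.

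Whether the difference between stages depended on the genotype was tested with the interaction of genotype and stage. None of 17 members was called, and 0% of 869 genes were. At an unadjusted p under 0.05 there was 1 member, Tnfrsf1b, against 7.25% of all genes, and DESeq2 called 0 members and 0.104% of genes. The interaction of Tnfrsf1b was 0.75 ± 0.31 on the log2 scale (edgeR adjusted p = 0.66), with the larger value in Kit-W/sh. The next smallest p belonged to Tnfsf18 (-2.41 ± 1.24, edgeR adjusted p = 0.66) and Tnfrsf10b (-0.81 ± 0.42, edgeR adjusted p = 0.66). The Tnfsf18 value was -5.81 without Kit-B6 preneoplastic sample 1, which held both counts of its group, and ran from -2.78 to -1.82 without any other library. The members called in a single genotype are therefore not shown to differ between the genotypes.

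The second question was whether tumors of Kit-W/sh mice differed from those of Kit-B6 mice. None of the 16 members tested was called, as 0% of 799 genes were. Tnfrsf17 was too low to be tested. At an unadjusted p under 0.05 there were 7 members, 6 higher in Kit-W/sh (Tnf, Tnfsf9, Tnfsf11, Tnfsf14, Tnfrsf1b and Tnfrsf9) and 1 lower (Tnfsf4), where 13.6% of all genes had such a p and 8.26% had it with a higher level. Values for 10 of the 16 members were above 0, against 48.2% of all genes, and the median was 0.26 against -0.01. No member separated the tumor groups fully, as 0.626% of all genes did. In the same tumor groups the sum of 4 neutrophil markers was 61.8 to 257 CPM in Kit-B6 and 272 to 758 CPM in Kit-W/sh, without overlap. The sum of 7 monocyte and macrophage markers overlapped, at 1509 to 4007 CPM (median 2616) and 2669 to 4366 CPM (median 3718). None of the 3 neutrophil markers tested was called, with all 3 values above 0. None of the 6 monocyte and macrophage markers tested was called either, with 4 values above 0 and a median of 0.11. The part of those cell types in the member values was not tested.

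**Figure D4:**
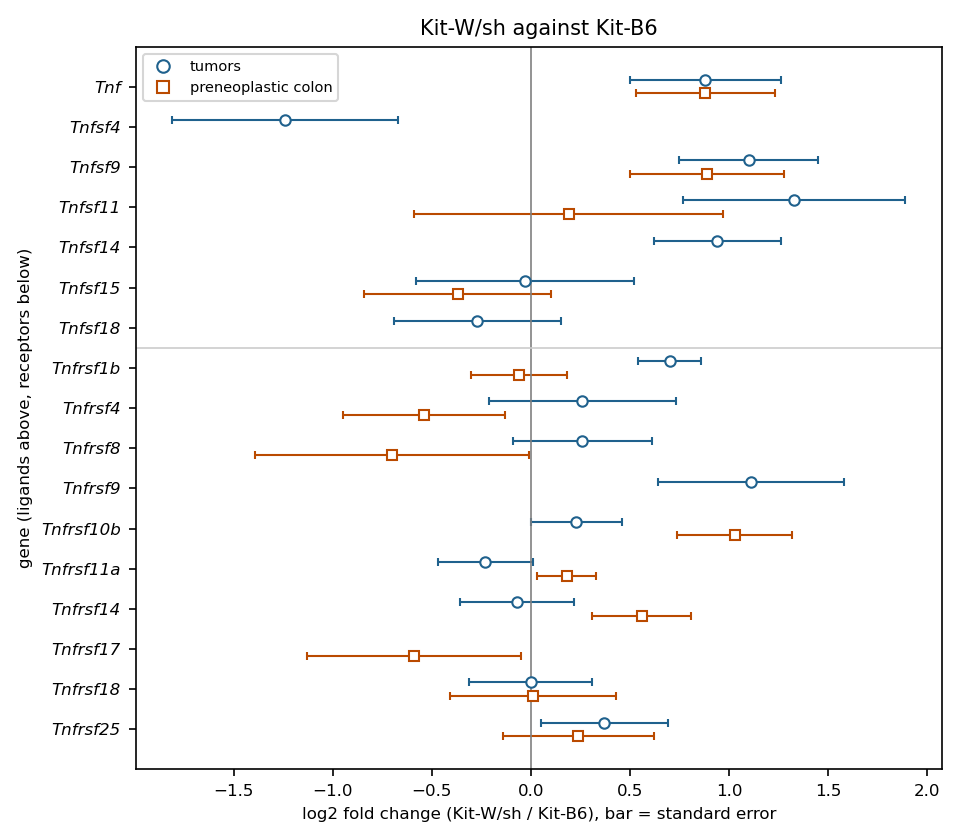
Log2 fold change of Kit-W/sh over Kit-B6 for each Tnf-named gene (rows, ligands above the line and receptors below), with the standard error as the bar; circles are tumors, squares are preneoplastic colon, and genes too low to be tested have no symbol. All symbols are open because no member passed the test, and Tnf lies at 0.88 at both stages.

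Tnfrsf1b had the smallest p of the members. Its 6 Kit-W/sh tumors, at 957, 639, 1000, 1103, 1032 and 747 CPM, all exceeded the Kit-B6 median of 568 CPM, and the single Kit-W/sh tumor within the Kit-B6 range (433 to 662 CPM) was the library labelled Kit-W/sh tumor 2. The log2 fold change was 0.70 ± 0.16, with an unadjusted edgeR p of 0.000702 and an adjusted p of 0.154. Without the library labelled Kit-W/sh tumor 2 it was 0.78 (edgeR adjusted p = 0.0517), the lowest adjusted p with any library left out. DESeq2 called it (0.68, adjusted p = 0.00982), as the single member it called where it called 3.35% of the genes.

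Tnfsf9 and its receptor gene Tnfrsf9 had values of similar size. Tnfsf9 was at 145, 115, 171, 363, 512 and 191 CPM in the Kit-W/sh tumors and at 106, 76.8, 127, 93.7, 160 and 124 CPM in the Kit-B6 tumors. Tnfrsf9 was at 131, 112, 134, 225, 419 and 295 CPM in the Kit-W/sh tumors and at 84, 72.6, 73.6, 19.6, 182 and 169 CPM in the Kit-B6 tumors. For both genes all 6 Kit-W/sh tumors were above the Kit-B6 median, with tumor 5 the highest, yet the groups overlapped. The log2 fold changes were 1.10 ± 0.35 for Tnfsf9 (edgeR adjusted p = 0.198) and 1.11 ± 0.47 for Tnfrsf9 (edgeR adjusted p = 0.333).

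Tnf was at 255, 227, 162, 492, 498 and 217 CPM in the Kit-W/sh tumors and at 250, 165, 118, 57.6, 276 and 127 CPM in the Kit-B6 tumors. All 6 Kit-W/sh tumors were above the Kit-B6 median, and 2 of them, tumors 4 and 5, were above every Kit-B6 tumor. The log2 fold change was 0.88 ± 0.38 (edgeR adjusted p = 0.349). Tnfsf14 was at 14.3, 13.1, 23.6, 15.4, 24 and 21.1 CPM against 15.3, 6.98, 12.6, 6.18, 6.41 and 9.43 CPM (0.94 ± 0.32, edgeR adjusted p = 0.232). Tnfsf11 was at 17.4, 40.1, 39.9, 52.5, 127 and 53.2 CPM against 25.8, 47.5, 10.5, 3.09, 20.7 and 22.4 CPM (1.33 ± 0.56, edgeR adjusted p = 0.323), with overlap in both genes. The Tnfsf11 value was 0.87 without Kit-W/sh tumor 5 (edgeR adjusted p = 0.602) and 1.69 without Kit-B6 tumor 2 (edgeR adjusted p = 0.235). Tnfsf4 went the other way, with all 6 Kit-W/sh tumors at or below 14.7 CPM and under the Kit-B6 median of 17.2 CPM (-1.24 ± 0.57, edgeR adjusted p = 0.363). Its groups overlapped too, since Kit-B6 tumors reached down to 2.06 CPM, and a Kit-W/sh tumor held 4 to 19 counts.

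The third comparison asked the same of preneoplastic colon, with 3 Kit-B6 and 2 Kit-W/sh samples. Of 13 members tested none was called, against 0.129% of 777 genes, and DESeq2 called 0 of the 8 members to which it gave an adjusted p and 3.35% of genes. Tnfrsf9, Tnfsf4, Tnfsf14 and Tnfsf18 were too low to be tested. At an unadjusted p under 0.05 there were 2 members, Tnfrsf10b and Tnf, both higher in Kit-W/sh, where 10.7% of all genes had such a p. Both Kit-W/sh samples lay above all 3 Kit-B6 samples for 5 of the members tested (Tnf, Tnfsf9, Tnfrsf10b, Tnfrsf11a and Tnfrsf14), against 16.3% of all genes tested, and for none did they lie below, against 13.4%. Among the members too low to be tested, the same held for Tnfsf18.

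Tnfrsf10b, the TRAIL receptor gene, was at 376 and 263 CPM in Kit-W/sh against 136, 140 and 186 CPM in Kit-B6 (1.03 ± 0.29, edgeR adjusted p = 0.313). Tnf was at 148 and 201 CPM against 99, 116 and 65.1 CPM (0.88 ± 0.35, edgeR adjusted p = 0.461), the same fold change as in tumors. Tnfsf9 was at 36.2 and 39.9 CPM against 22, 20 and 18.6 CPM (0.89 ± 0.39, edgeR adjusted p = 0.467), from 11 to 29 counts a library. Tnfrsf14 had a value of 0.56 ± 0.25 and Tnfrsf11a of 0.18 ± 0.15. Tnfrsf4 had a value of -0.54 ± 0.41, and Tnfrsf1b, which had the smallest p in tumors, had -0.06 ± 0.24. The median of the 13 members was 0.18 against -0.01 for all genes, and -0.02 against -0.16 when libraries were scaled to the 9 genes listed last in the tables, so no direction is drawn from it.

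Ligand and receptor levels were also compared across the 12 tumors, in 7 pairs chosen after the data were seen. The points of a pair share their library and its scaling. The Tnfsf9 and Tnfrsf9 pair had a Pearson r of 0.77 (permutation p = 0.00092, adjusted over the 7 pairs 0.00644) and a Spearman rho of 0.90 (permutation p = 0.00014, adjusted 0.00098). The r was 0.74 without the 2 tumors farthest from the median of Tnfsf9. Genotype was ignored in the permutations over all 12 tumors, and the medians of both genes were higher in Kit-W/sh tumors. Within Kit-B6 r was 0.63 (exact permutation p = 0.186) and rho 0.77 (exact permutation p = 0.103). Within Kit-W/sh r was 0.85 (exact permutation p = 0.0528) and rho 0.94 (exact permutation p = 0.0167). Over the 14 tests that 7 pairs and both genotypes give, no within-genotype r or rho had an adjusted p under 0.05 (smallest 0.136 for r and 0.233 for rho). Between all pairs of the 799 genes tested in tumors, the middle 95% of r ran from -0.71 to 0.73.

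Tnf and Tnfrsf1b had r = 0.69 (permutation p = 0.012, adjusted 0.042) and rho = 0.54 (permutation p = 0.0736, adjusted 0.141). The value was 0.45 without Kit-B6 tumor 4 and Kit-W/sh tumor 5, so the relation rests on those tumors, and 0.56 without Kit-B6 tumor 4 alone. The permutation ignored genotype, and both genes had higher medians in Kit-W/sh tumors. Within genotypes r was 0.46 in Kit-B6 (exact permutation p = 0.403) and 0.51 in Kit-W/sh (exact permutation p = 0.325). Tnfsf11 and Tnfrsf11a, the RANK ligand and receptor genes, had r = -0.62 (permutation p = 0.0531, adjusted 0.124), and 0.12 without the same tumors. Within Kit-W/sh the RANK pair had r = -0.85 (exact permutation p = 0.0194, adjusted 0.136), and within Kit-B6 it had r = -0.55 (exact permutation p = 0.344). Tnfsf4 and Tnfrsf4 had r = 0.51 over all tumors (permutation p = 0.0938, adjusted 0.164) and 0.79 without the pair of tumors farthest from the median, Kit-B6 tumors 1 and 6. Within Kit-W/sh the OX40 pair had r = 0.93 (exact permutation p = 0.0167, adjusted 0.136), and within Kit-B6 it had r = 0.54 (exact permutation p = 0.256). Tnfsf18 and Tnfrsf18 had r = 0.41 (permutation p = 0.193, adjusted 0.27), and 0.63 without Kit-B6 tumor 4. The other 2 pairs had r of -0.18 and 0.34, with adjusted permutation p of 0.564 and 0.33.

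**Figure D5:**
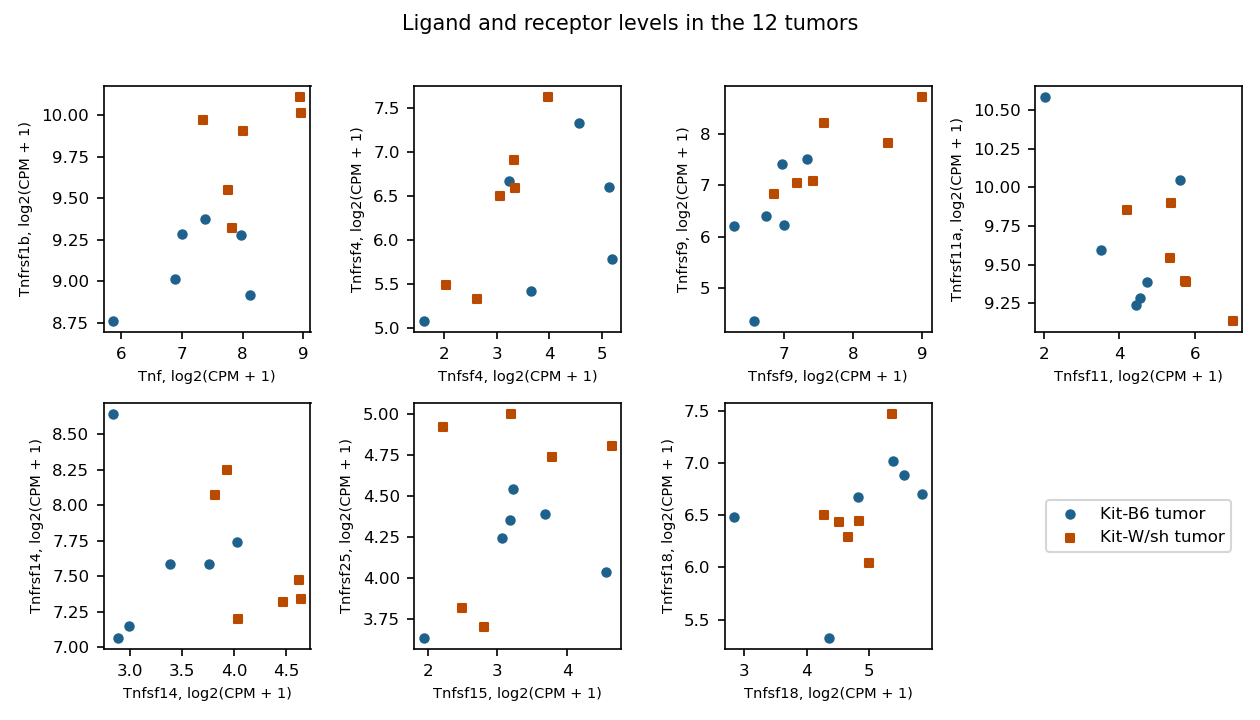
Level of each receptor against its ligand, both as log2(CPM + 1), in the 12 tumors; circles are Kit-B6 and squares Kit-W/sh. The Tnfsf9 and Tnfrsf9 points climb together (r = 0.77), with Kit-B6 tumor 4 the lowest point, and the Tnfsf18 and Tnfrsf18 points are scattered (r = 0.41).

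Superfamily genes under other symbols were called in the downward direction alone between stages. Of 9 measured of 14 listed, 7 were tested, and 2 fell in each genotype, where 18.9% and 18.8% of all genes tested fell. Fas, a death receptor gene, fell in Kit-B6 (-1.07 ± 0.23, edgeR adjusted p = 0.00198) and in Kit-W/sh (-1.04 ± 0.26, edgeR adjusted p = 0.00522). Lta, which encodes lymphotoxin alpha and lies beside Tnf, fell in Kit-B6 (-1.54 ± 0.57, edgeR adjusted p = 0.0384), while Ltbr, the lymphotoxin beta receptor gene, fell in Kit-W/sh (-0.38 ± 0.14, edgeR adjusted p = 0.0468). None was called between genotypes in tumors (0 of 6 tested) or in preneoplastic colon (0 of 6 tested).

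Genes that carry the signal from the receptors were called in both directions between the stages, and none of 12 tested was called between the genotypes at either stage. Of 12 measured of 34 listed, 2 rose and 3 fell in Kit-B6 tumors, and 1 rose and 4 fell in Kit-W/sh tumors. That is 5 of 12 in each genotype, near the 41.1% and 39.7% of all genes that were called. The NF-kB subunit gene Rela rose in both (0.64 ± 0.18, edgeR adjusted p = 0.00998, and 0.60 ± 0.21, edgeR adjusted p = 0.032), and Nfkb1 rose in Kit-B6 (0.76 ± 0.22, edgeR adjusted p = 0.0115). The kinase genes Tbk1 and Chuk and the caspase gene Casp8 fell in both. Tbk1 had values of -0.91 ± 0.13 and -0.64 ± 0.15, Chuk of -0.60 ± 0.17 and -0.67 ± 0.19, and Casp8 of -0.44 ± 0.13 and -0.50 ± 0.14. Nfkbia, which encodes the NF-kB inhibitor IkB alpha, had the smallest p of the list in both genotype comparisons, at 0.71 ± 0.24 in tumors (edgeR adjusted p = 0.229) and 0.79 ± 0.17 in preneoplastic colon (edgeR adjusted p = 0.253). Cyld, a deubiquitinase that restrains NF-kB, fell in Kit-W/sh (-0.50 ± 0.18, edgeR adjusted p = 0.0333).

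Inflammatory genes that NF-kB is known to induce rose widely in tumors. Of 17 measured of 22 listed, 11 rose and 1 fell in Kit-B6, where 22.2% of all genes tested rose and 18.9% fell. In Kit-W/sh 15 rose and 1 fell, where 20.9% of all genes tested rose and 18.8% fell. Those that rose in both were the chemokine genes Cxcl1, Cxcl2, Cxcl5, Ccl2, Ccl3 and Ccl4, the cytokine genes Il1a, Il1b and Il6, and the adhesion genes Icam1 and Selp, and Sele, Vcam1, Csf2 and Nos2 passed in Kit-W/sh and not in Kit-B6. The interaction of genotype and stage called 0 of the 17 genes, as it called 0% of all 869 genes. The neutrophil chemokine gene Cxcl5 went from 53.6 ± 29.7 CPM (SD, n = 3) to 4648 ± 2158 CPM (SD, n = 6) in Kit-B6, which is 6.45 ± 0.74 on the log2 scale (edgeR adjusted p = 1.51e-05). Ccl5, which encodes a chemokine that attracts T cells, was the one that fell, by 1.35 on the log2 scale in Kit-B6 and by 2.43 in Kit-W/sh. Between tumor groups 14 of 16 tested genes had values above 0, against 48.2% of all genes, and the median was 1.55 against -0.01. None was called, as 0% of all genes were (smallest edgeR adjusted p = 0.154, for Ccl4, Nos2, Cxcl2 and Il1a).

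Marker sums of other cell types were also compared between the stages. The sum of 4 neutrophil markers measured of 7 listed was 6.2 to 12.8 CPM in Kit-B6 and 7.24 to 15.1 CPM in Kit-W/sh preneoplastic colon, with Mpo at 0, and 61.8 to 257 and 272 to 758 CPM in tumors. The 7 monocyte and macrophage markers of 9 listed summed to 1263 to 1568 CPM in preneoplastic colon of either genotype and to 1509 to 4366 CPM in tumors. The 9 T cell markers summed to 603 to 1765 CPM in preneoplastic colon and to 186 to 878 CPM in tumors, with overlap. The 4 regulatory T cell markers summed to 63.6 to 181 CPM in preneoplastic colon and 95.6 to 308 CPM in tumors, with overlap in both genotypes. The 8 cytotoxic lymphocyte markers summed to 243 to 501 CPM in preneoplastic colon and 67.3 to 292 CPM in tumors. For 3 fibroblast markers of 8 listed the sums were 1684 to 3423 CPM and 2825 to 11445 CPM. For 2 endothelial markers of 6 listed they were 85.3 to 121 CPM and 114 to 329 CPM. The part of these cell types in the results on the Tnf-named genes was not tested.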

How the data were processed

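Per the labels' protocols, colon RNA was read on a MiSeq from libraries of a QIAseq targeted panel for mouse immuno-oncology genes, in which short amplicons are made by multiplex PCR. The authors deposited whole-number counts per gene, in 1 table per sample, and whether reads or molecular tags were counted is not stated. The submitters' processing notes name mm9 and DESeq2, with no role or version, and the aligner and counter are not given in the sources used here. Of 993 entries, 5 control amplicons had 0 counts in every library and were left out, and 988 genes were kept. Amplified reads are not independent molecules, so counting intervals cover counting error only. Nothing states that samples of a group came from separate mice, so a p-value reflects only how these samples spread, which may be technical. No pair of libraries within a group agreed within counting noise (lowest chi-square per degree of freedom 13.03).

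Counts were tested in R 4.3.3 with edgeR 4.0.16 (TMM scaling, genes kept by filterByExpr at minimum counts of 10 and minimum totals of 15, robust quasi-likelihood F test, two-sided) and adjusted by Benjamini-Hochberg over all genes tested, with a threshold of 0.05. Genotype comparisons were fitted on the libraries of their stage. For stage comparisons and the interaction, all 17 libraries entered 1 fit as 4 groups. Values are log2 fold changes ± standard error, and levels are TMM-scaled CPM. Correlations used log2(CPM + 1) and two-sided permutation tests (100000 permutations, or exact enumeration within a genotype). DESeq2 1.42.0, other scalings, no filter, other fits, a replicate block and left-out libraries were the alternatives.

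The members, the gene lists and the comparisons were chosen with earlier results of these data known. Values in every library, or for groups of 6 tumors the lowest, median and highest, are given for members called in any comparison, for the 6 members with the smallest p in each genotype comparison, and for Tnf and Tnfrsf1b; other members are given by range. Genes of the pathway lists could be named if called or among the 4 smallest p of their list, and not all of those are named. Upstream windows and neighbouring genes came from RefSeq (GRCm38.p6) by symbol, and Tnfrsf10b, Tnfsf4 and Tnfsf9 had no matched window.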

Additional observations from a re-analysis of the deposited data

Results flagged for a closer look

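Each member was checked in both tumor groups, 34 sets of 6 libraries, for a library whose gap to the nearest other exceeded Dixon's 95% limit for its group. If levels were normally distributed, about 1 in 20 such sets would be found by chance. Levels in CPM need not be, so that rate may not hold here. In all, 4 were found, each the highest of its group. Tnfsf11, the RANK ligand gene, was at 127 CPM in Kit-W/sh tumor 5 and at 17.4 to 53.2 CPM in the other 5 Kit-W/sh tumors. Kit-B6 tumor 4 held 399 CPM of Tnfrsf14, and the others of its group held 133 to 213 CPM; that tumor also had the highest sum of the 2 epithelial markers (49441 CPM). Tnfrsf17, the BCMA gene, reached 40.5 CPM for Kit-B6 tumor 2, with the others at 1.18 to 6.46 CPM, and that tumor also had the highest B cell marker sum of its group (693 CPM). Tnfrsf18, the GITR gene, reached 176 CPM for the library labelled Kit-W/sh tumor 2, with the others at 65.1 to 89.5 CPM, and that library also had the highest T cell (878 CPM) and regulatory T cell (308 CPM) marker sums of its group. The part of these markers in the 4 values was not tested.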

How the results depend on the processing

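Of the values recomputed under the alternatives, 492 kept their direction and their side of the threshold, 32 no longer passed, 1 newly passed and 3 reversed. That tally covers only some members in each comparison, mainly those called or with the smallest p. Outside it, members newly passed between stages under at least 1 alternative: Tnfrsf8, Tnfrsf14 and Tnfsf15 in Kit-B6, and Tnfsf14 and Tnfsf4 in Kit-W/sh. DESeq2 called 1 member between tumor groups, Tnfrsf1b, where edgeR called 0. Leaving out each library in turn gave 5 to 11 members called between stages in Kit-B6 and 3 to 6 in Kit-W/sh. The reversals were all of Tnfrsf1b values near 0: between preneoplastic groups it ran from -0.38 to 0.17 with a library left out (main value -0.06, above 0 in 2 fits, at 0.03 and 0.17), and between Kit-B6 stages from -0.00 to 0.20. Where 1 Kit-W/sh preneoplastic sample was left, it was assumed to vary like the other groups. Shares of all genes called are not given for the fits that left out a library, so their counts describe the members alone. Unscaled library totals moved the median of all genes between stages to 0.24 in Kit-B6 and 0.34 in Kit-W/sh, from -0.00 and 0.08, and no called member changed direction under any scaling; the scaling to the 9 genes listed last and the ligand and receptor pairs were chosen after seeing the data. Nothing in the labels ties a replicate number to a shared animal or batch: same-numbered tumors had correlations of deviations from -0.19 to 0.39, and 3 of 6 correlated best with their own number. With the replicate block 0 members were called between tumor groups, between preneoplastic groups and in the interaction, the same counts as without it. Depth limits Tnfsf4, Tnfsf14, Tnfsf18 and Tnfrsf9 in preneoplastic colon, where a library held at most 6 counts of any of them.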
